A study of Homo sapiens with 8 samples.

Results

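Enzymes that make, salvage and break down pyrimidine nucleotides and deoxynucleotides were followed in ovarian carcinoma spheroids, through the genes CDA, DCK, DPYD, UPP1, TYMP, TYMS, TK1, RRM1, RRM2 and RRM2B. The 10 genes were chosen by name, and all 10 were among the 15931 genes tested, each measured by a single probeset annotated to that gene alone. RNA came from spheroids, compact aggregates of about 300 μm grown in agarose molds, of 2 lines with 4 Affymetrix Human Gene ST arrays each. OVCAR-8R, called OVCAR-8C in the sample labels, is a cisplatin-resistant line, obtained by growing OVCAR-8 in cisplatin raised in steps to a final 5 μM, and it stayed resistant once the drug was withdrawn. OVCAR-8, the human ovarian adenocarcinoma line it came from, had no such exposure and served as the cisplatin-sensitive line. The sources used here do not say whether OVCAR-8R is a clone or a mixed population, and a single pair of lines was compared. No nucleoside drug is named in the treatment of either line.

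Cells obtain pyrimidine nucleotides by building the ring from small precursors or by salvaging nucleosides, and they return the surplus to breakdown. Kinases such as DCK and TK1 trap nucleosides inside the cell by phosphorylation, CDA turns cytidine and deoxycytidine into uridine and deoxyuridine, and the phosphorylases UPP1 and TYMP split nucleosides into base and sugar. TYMS makes the thymidine nucleotide used for DNA, ribonucleotide reductase (RRM1 with RRM2 or RRM2B) turns ribonucleotides into deoxyribonucleotides, and DPYD starts the breakdown of uracil and thymine. The same enzymes handle anticancer drugs. DCK activates gemcitabine and cytarabine, CDA inactivates both, DPYD degrades fluorouracil, TYMP and UPP1 can convert it to active nucleosides, and TYMS and ribonucleotide reductase are drug targets.

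The promoters of CDA, the gene with the largest difference in the set, and of TK1, TYMS, RRM1 and RRM2, the 4 members whose products supply deoxynucleotides in S phase, are shown for their different sequence features. The lines for CDA, TYMS and RRM1 give the 130 bases before the transcription start in RefSeq (GRCh38.p14), and those for TK1 and RRM2, whose starts lie inside the span of the gene, 30 bases around the match nearest the start, all 5′ to 3′ on the strand of the gene. Capitals mark CCAAT or its complement ATTGG, the core of the NF-Y site, and GCGGGAAA, the complement of TTTCCCGC, a form of the E2F site.
CDA, chr1:20588967-20589096, plus strand: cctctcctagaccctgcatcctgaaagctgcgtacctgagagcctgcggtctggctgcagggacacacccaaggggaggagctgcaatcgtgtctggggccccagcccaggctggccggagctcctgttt
TK1, chr17:78187081-78187110, minus strand: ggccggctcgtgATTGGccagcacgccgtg
TYMS, chr18:657523-657652, plus strand: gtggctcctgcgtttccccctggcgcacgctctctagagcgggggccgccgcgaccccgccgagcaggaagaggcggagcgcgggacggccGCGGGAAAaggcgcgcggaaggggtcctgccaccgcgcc
RRM1, chr11:4094555-4094684, plus strand: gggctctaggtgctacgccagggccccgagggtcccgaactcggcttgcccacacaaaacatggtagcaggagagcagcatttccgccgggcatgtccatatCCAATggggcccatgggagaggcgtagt
RRM2, chr2:10122661-10122690, plus strand: ggggcaccaaagCCAATgggaagggccggg

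For these sequences, 9 of the 10 genes had RefSeq starts in the set searched, 15 between them. RRM2B has a position in RefSeq but had no start in that set. The 250 bases before each start were searched on both strands. CCAAT was found at 1 of 2 starts of TK1, at both starts of RRM2 and TYMP, and at the start of RRM1. That made 6 of the 15 starts, against 32.0% of all 35116 starts. At the RRM2 start shown, the window holds 3 copies, which begin 123, 93 and 66 bases before the start, and at the TK1 start shown it holds 2, which begin 77 and 46 bases before it. The RRM1 copy begins 28 bases before the start, and the TYMS E2F match 39 bases before it. One of the E2F forms TTTCCCGC, TTTGGCGC, TTTCGCGC and TTTGCCGC was found only at TYMS, against 2.79% of all starts. The GC box GGGCGG was found at 1 or more starts of DCK, DPYD, UPP1, TYMP, TK1, RRM1 and RRM2. It was present at 11 of the 15 starts, against 42.6% of all starts. Windows of the same gene can overlap, as those of TYMP, UPP1 and DPYD do, so some sites are counted at more than 1 start. The 15 starts are therefore not independent, and their shares were not tested against those of all starts. One UPP1 start held an AP-1 match (TGACTCA or its complement), against 4.2%, RRM1 held the CHR letters TTTGAA, against 13.3%, and the other TK1 start held the TATA letters TATAAA, against 10.7%. The CDA window held none of these 6 motifs. Where a gene has several starts, the one with the most E2F and CCAAT matches is shown. A match is a run of letters and was not tested as a binding site.

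In OVCAR-8R spheroids, CDA, DPYD and TK1 were higher than in OVCAR-8 spheroids and RRM1 and RRM2B were lower, by at least 2-fold with an adjusted p under 0.05 (limma, Benjamini-Hochberg over all probesets kept). CDA differed 20.5-fold, DPYD 3.9-fold, and TK1, RRM1 and RRM2B by about 2.3-fold each. The other 5 genes had smaller differences. TYMS, UPP1, TYMP and DCK lay higher in OVCAR-8R by 0.92, 0.66, 0.57 and 0.21 on the log2 scale, and RRM2 had a difference of -0.51. Signals are log2 values of the RMA signal, a background-corrected and quantile-normalized array intensity, and every difference is OVCAR-8R minus OVCAR-8, its standard error taken from limma.

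Among all genes tested, 16.7% passed the same threshold, 8.37% higher and 8.37% lower, while 5 of the 10 enzyme genes did, 3 higher and 2 lower. At any size of difference the adjusted p was under 0.05 for all 10 enzyme genes, 7 higher and 3 lower, against 57.6% of all genes, 27.6% higher and 30% lower, so most genes tested passed this looser rule too. The lines did not overlap for any of the 10, with OVCAR-8R above for 7 and below for 3, against 56.8% of all genes, 27.3% above and 29.5% below. The median difference was 0.62 for the 10 genes and -0.01 for all genes. The genes were chosen with earlier results of these data known, so no test was made of the set as a whole.

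**Figure D1:**
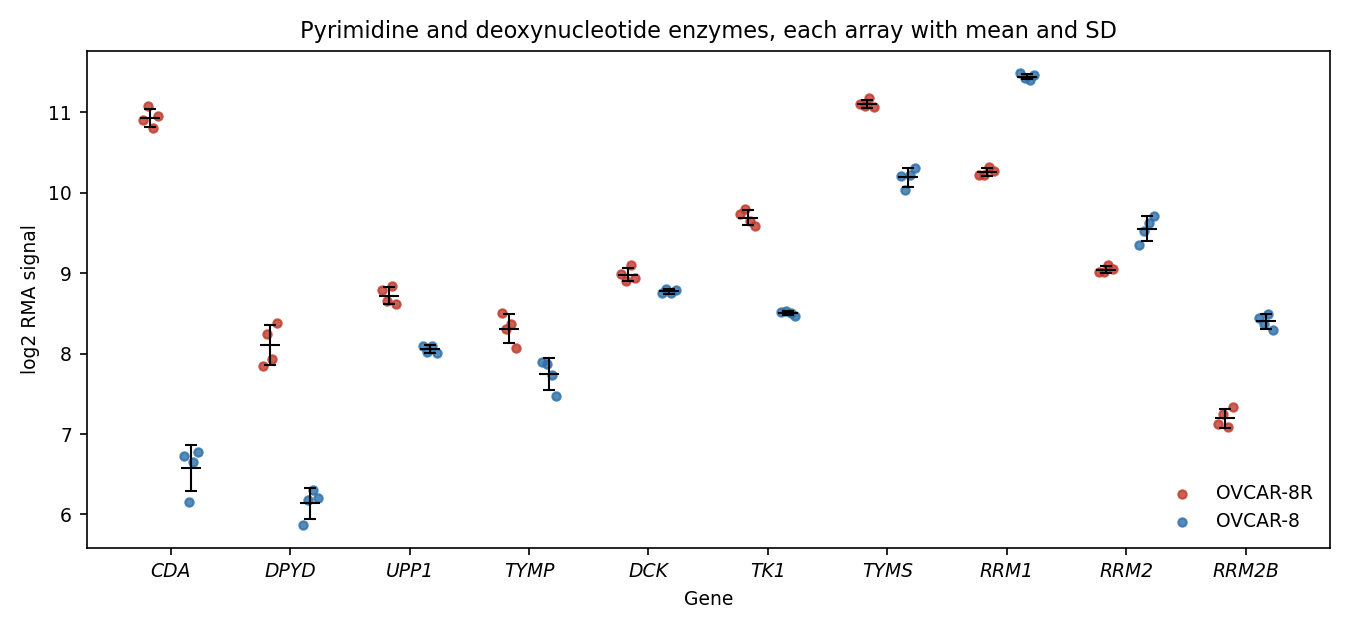
Log2 RMA signal (vertical axis) of the 10 enzyme genes (horizontal axis) on the 4 OVCAR-8R arrays (red, left) and the 4 OVCAR-8 arrays (blue, right), black marks giving each line's mean and SD. The CDA points lie between 10.81 and 11.08 in OVCAR-8R and between 6.16 and 6.78 in OVCAR-8, and no gene has overlapping lines.

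CDA, the deaminase that acts on cytidine and deoxycytidine and inactivates gemcitabine and cytarabine, had log2 signals of 10.90, 11.08, 10.81 and 10.95 on the OVCAR-8R arrays, against 6.73, 6.16, 6.65 and 6.78 on the OVCAR-8 arrays. The lines lay far apart, and the widest gap within either was between OVCAR-8 array 2 and the other OVCAR-8 arrays. CDA rose by 4.36 in OVCAR-8R (standard error 0.14, 95% interval 4.05 to 4.66, adjusted p = 6.94e-09 by limma). It ranked 72 of the 15931 genes by size of difference. Its OVCAR-8 mean of 6.58 lay just under the OVCAR-8 array medians of 6.67 to 6.73. Over the 8 arrays, the genes whose signal was most like that of CDA were DOCK5, ZFAND3 and ITPR3, with Pearson r of 0.9996, 0.9995 and 0.9992, values that mostly reflect the gap between the lines.

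DPYD, the dehydrogenase that opens uracil and thymine breakdown and degrades fluorouracil, had log2 signals of 7.85, 8.25, 7.94 and 8.38 on the OVCAR-8R arrays and of 5.87, 6.18, 6.31 and 6.21 on the OVCAR-8 arrays. Its OVCAR-8R values formed a lower pair (arrays 1 and 3) and a higher pair (arrays 2 and 4), each above every OVCAR-8 array. DPYD rose by 1.96 (standard error 0.14, 95% interval 1.65 to 2.27, adjusted p = 1.59e-06). Its OVCAR-8 mean of 6.14 lay below the OVCAR-8 array medians, though above the lowest quartile of signal, which ended at 5.16. With only OVCAR-8R arrays 1 and 3 the difference was 1.75, and with only arrays 2 and 4 it was 2.17.

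The phosphorylase genes lay higher in OVCAR-8R, under the 2-fold threshold. UPP1, which splits uridine into uracil and ribose phosphate, had log2 signals of 8.79, 8.65, 8.84 and 8.61 on the OVCAR-8R arrays, against 8.10, 8.03, 8.10 and 8.01 on the OVCAR-8 arrays. Its difference was 0.66 (standard error 0.08, 95% interval 0.50 to 0.83, adjusted p = 4.28e-05). TYMP, which does the same for thymidine, varied more within each line.
TYMP had log2 signals of 8.51, 8.30, 8.37 and 8.07 on the OVCAR-8R arrays, against 7.90, 7.88, 7.73 and 7.47 on the OVCAR-8 arrays. On both sides array 4 was the lowest, and the lowest OVCAR-8R array stood only slightly above the highest OVCAR-8 array. The difference was 0.57 (standard error 0.12, 95% interval 0.30 to 0.84, adjusted p = 0.00285). In RefSeq, TYMP overlaps SCO2, a gene for a mitochondrial copper chaperone, whose own probeset had a difference of 0.06 (standard error 0.12) with overlapping lines.

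The salvage kinases differed in size of change. TK1, the cytosolic thymidine kinase of S phase, had log2 signals of 9.74, 9.80, 9.65 and 9.59 on the OVCAR-8R arrays and of 8.52, 8.53, 8.51 and 8.46 on the OVCAR-8 arrays, all well separated. TK1 rose by 1.19 (standard error 0.07, 95% interval 1.03 to 1.34, adjusted p = 4.83e-07). Tested against a 2-fold change itself (limma's treat), TK1 did not pass (adjusted p = 0.143).
DCK, the kinase that phosphorylates deoxycytidine and activates gemcitabine and cytarabine, had the smallest difference of the set. Its log2 signals were 8.99, 8.90, 9.10 and 8.94 on the OVCAR-8R arrays, against 8.75, 8.81, 8.75 and 8.79 on the OVCAR-8 arrays. The lines did not overlap, but the gap between the nearest arrays was narrow. The difference was 0.21 (standard error 0.07, 95% interval 0.05 to 0.36, adjusted p = 0.0284), a ratio of 1.16. At any size of difference this call was lost without OVCAR-8R array 1 or 3 or without OVCAR-8 array 1 or 3, with adjusted p between 0.0548 and 0.0879, and with only OVCAR-8R arrays 2 and 4 (adjusted p = 0.152).

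**Figure D2:**
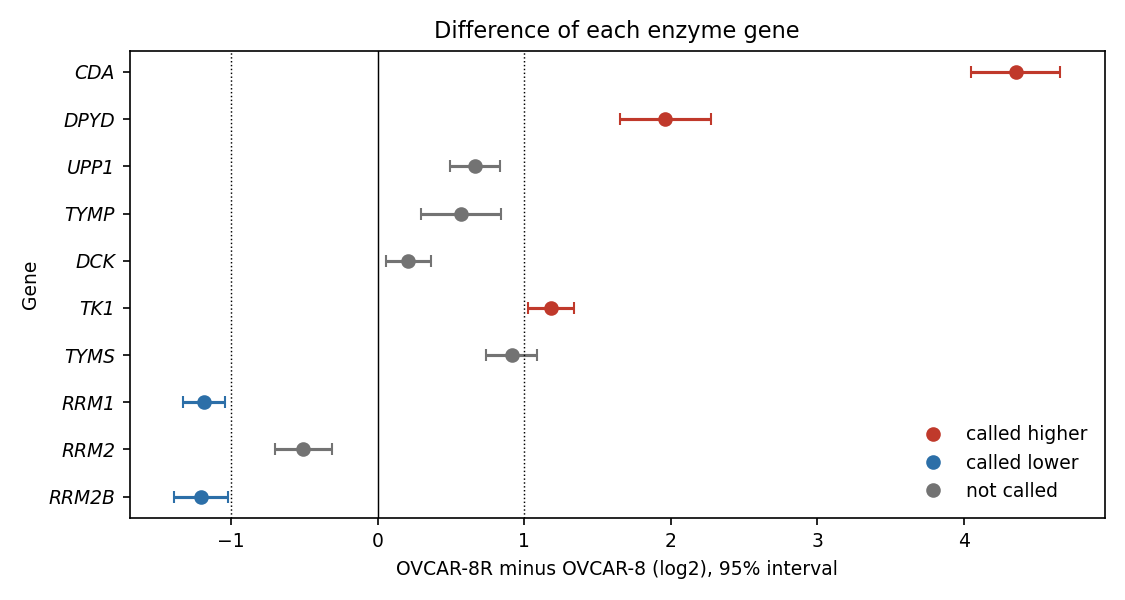
Difference of each gene, OVCAR-8R minus OVCAR-8 on the log2 scale (horizontal axis), with its 95% interval from limma and 4 arrays per line, in red for called higher, blue for called lower and gray for not called. Dotted lines mark 2-fold, and the interval of TYMS (0.74 to 1.09) crosses that line.

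TYMS, the thymidylate synthase that fluorouracil derivatives block, had log2 signals of 11.10, 11.08, 11.18 and 11.07 on the OVCAR-8R arrays, against 10.21, 10.03, 10.23 and 10.31 on the OVCAR-8 arrays. The OVCAR-8R arrays were tightly grouped and stood above every OVCAR-8 array. The difference of 0.92 (standard error 0.08, adjusted p = 5.45e-06) was just short of 2-fold, and after cyclic loess scaling it was 1.04 and passed. In RefSeq, TYMS overlaps ENOSF1 and TYMSOS, and its probeset is annotated to TYMS alone.

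The subunit genes of ribonucleotide reductase all lay lower in OVCAR-8R. RRM1, the large catalytic subunit and a target of gemcitabine, had log2 signals of 10.22, 10.22, 10.32 and 10.27 on the OVCAR-8R arrays, against 11.49, 11.43, 11.40 and 11.46 on the OVCAR-8 arrays. It fell by 1.19 (standard error 0.06, adjusted p = 2.37e-07), with a difference of -1.19 and a 95% interval of -1.33 to -1.04. RRM1 had the smallest standard error of the 10 genes.
RRM2, the small subunit made in S phase, had log2 signals of 9.02, 9.01, 9.10 and 9.05 on the OVCAR-8R arrays, against 9.35, 9.53, 9.62 and 9.71 on the OVCAR-8 arrays. The spread in OVCAR-8 (SD 0.15) was wider than in OVCAR-8R (SD 0.04), and all OVCAR-8R arrays lay below. The difference was -0.51 (standard error 0.09, 95% interval -0.70 to -0.31, adjusted p = 0.000718), under 2-fold.
RRM2B, the small subunit that p53 can induce outside S phase, had log2 signals of 7.12, 7.24, 7.08 and 7.33 on the OVCAR-8R arrays, against 8.44, 8.36, 8.50 and 8.29 on the OVCAR-8 arrays. Every OVCAR-8R array was below every OVCAR-8 array. RRM2B fell by 1.21 (standard error 0.08, adjusted p = 1.30e-06), and its 95% interval ran from -1.39 to -1.02. With treat, neither RRM1 (adjusted p = 0.0958) nor RRM2B (adjusted p = 0.188) passed.

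The OVCAR-8R arrays fell into pairs over all probesets, and the enzyme genes did so about as often as other genes. Over the probesets kept, OVCAR-8R arrays 1 and 3 deviated from their line's mean together (r = 0.427), as did arrays 2 and 4 (r = 0.484), while arrays 1 and 2 deviated in opposite directions (r = -0.735). The OVCAR-8 arrays showed no such pairs, with r of -0.225 for arrays 1 and 3 and of -0.588 for arrays 2 and 4. For 7 of the 10 enzyme genes arrays 1 and 3 did not overlap arrays 2 and 4, against 67.6% of all genes. Arrays 1 and 3 were higher for DCK, UPP1, TYMP and TYMS and lower for CDA, DPYD and RRM2B, while TK1, RRM1 and RRM2 overlapped. The labels name no batch, and the part of this split in the differences was not tested beyond the following. With only arrays 1 and 3, or only arrays 2 and 4, the same 3 genes were called higher and the same 2 lower.

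**Figure D3:**
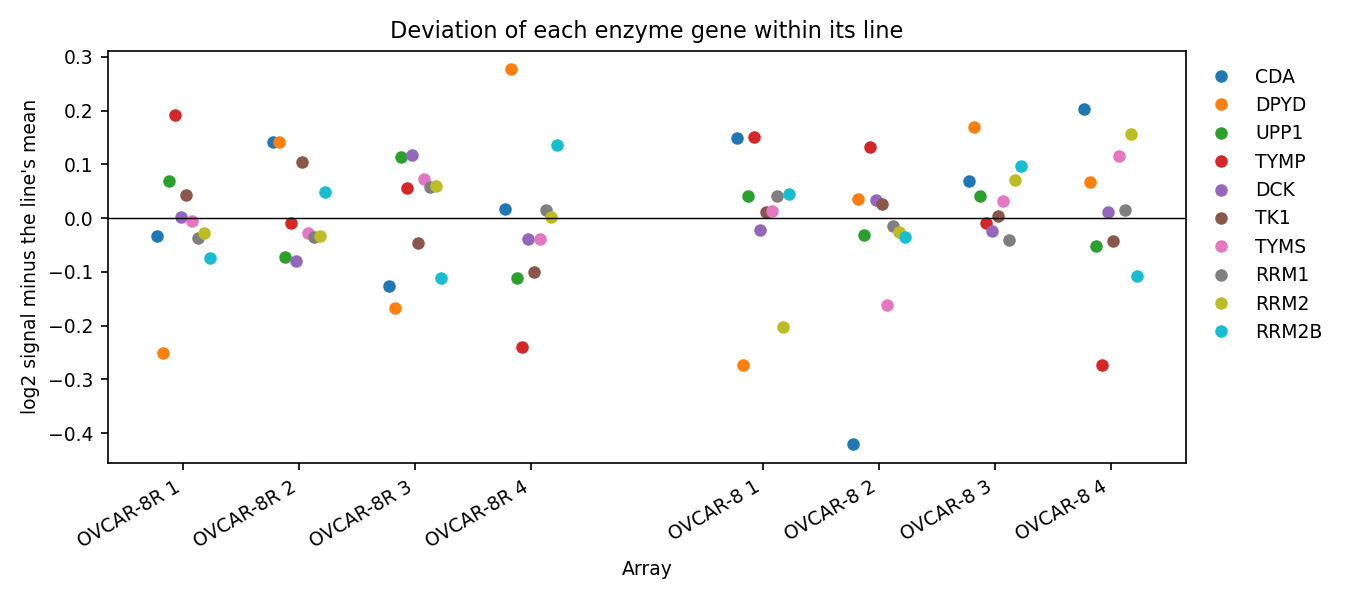
Log2 signal of each enzyme gene minus the mean of its line (vertical axis) on the 4 OVCAR-8R arrays and the 4 OVCAR-8 arrays (horizontal axis), 1 color per gene. DPYD and RRM2B lie below 0 on OVCAR-8R arrays 1 and 3 and above 0 on arrays 2 and 4, and the lowest point is CDA on OVCAR-8 array 2.

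Around the 10 enzymes, 63 further genes in 8 lists of the pathway were looked up, and 56 were tested. Of these, 2 were higher in OVCAR-8R, 1 was lower and the remaining 53 were not called, with a median difference of 0.03, against -0.01 for all genes. This was a smaller share than among all genes, of which 16.7% were called, 8.37% higher and 8.37% lower. DCTD, which deaminates deoxycytidine monophosphate and so feeds the substrate of TYMS, had log2 signals of 10.14, 10.26, 10.20 and 10.31 on the OVCAR-8R arrays and of 8.41, 8.51, 8.65 and 8.62 on the OVCAR-8 arrays. DCTD rose by 1.68 (standard error 0.08, adjusted p = 1.03e-07), and its arrays did not overlap. It can also deaminate the monophosphates of gemcitabine and cytarabine. DCTD and CDA, both of which turn a cytosine into a uracil that TYMS can then receive as deoxyuridylate, were thus both called higher.

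CTPS2, an amidotransferase that makes CTP from UTP, fell by 2.05 in OVCAR-8R (standard error 0.09, adjusted p = 6.20e-08). Its log2 signals were 7.20, 7.39, 7.20 and 7.31 on the OVCAR-8R arrays, against 9.51, 9.18, 9.29 and 9.32 on the OVCAR-8 arrays. CTPS1, which catalyzes the same step, had a difference of -0.12 with overlapping lines. In the rest of ring synthesis, UMPS, which completes UMP, had a difference of -0.87 and CAD, which carries the opening steps, one of 0.42, while DHODH had a difference of -0.04. NT5E, the surface nucleotidase CD73 that frees nucleosides from monophosphates, had the largest difference in the pathway lists. Its log2 signals ran from 11.15 to 11.26 in OVCAR-8R and, in OVCAR-8, from 4.70 to 5.28, with a mean in the lowest quartile of signal. NT5E rose by 6.20 (standard error 0.13, adjusted p = 7.07e-10), a size that depends on the low OVCAR-8 signal.

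None of the 12 kinase genes beyond DCK and TK1 passed the test. The mitochondrial kinase genes went opposite ways, with a difference of 0.69 for TK2 and of -0.88 for DGUOK. With only OVCAR-8R arrays 1 and 3, DGUOK passed at -1.10. Of the 6 nucleoside transporter genes tested, none passed, and SLC29A1, the main equilibrative carrier of gemcitabine and cytarabine, had a difference of -0.25. SLC28A3, a concentrative carrier, and SLC29A4 had differences of 0.46 and 0.40. SAMHD1, which breaks down deoxynucleoside triphosphates, had a difference of -0.22 with overlapping lines, DUT, which clears dUTP, one of -0.49 and DCTPP1, a further triphosphate hydrolase, one of -0.88.

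In the folate cycle, which supplies the methylene group to TYMS, none of 9 genes passed, with differences from -0.83 (MTHFD1L) to 0.75 (FPGS, which adds glutamates to folates and antifolates). Of 7 genes of the thioredoxin and glutaredoxin systems, which include reductants of ribonucleotide reductase, none passed. Their differences ran from -0.78 (TXN2) to 0.79 (GLRX), and which of them act on the reductase was not tested. The other nucleotidase genes lay between -0.75 (NT5C3B) and 0.62 (NT5C2). The later steps of pyrimidine breakdown after DPYD were near the low end of signal. AGXT2 had a difference of 0.55, UPB1 one of -0.12 and DPYS, whose mean log2 signal was 5.08 in OVCAR-8R, against 5.17 in OVCAR-8, one of -0.09.

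**Figure D4:**
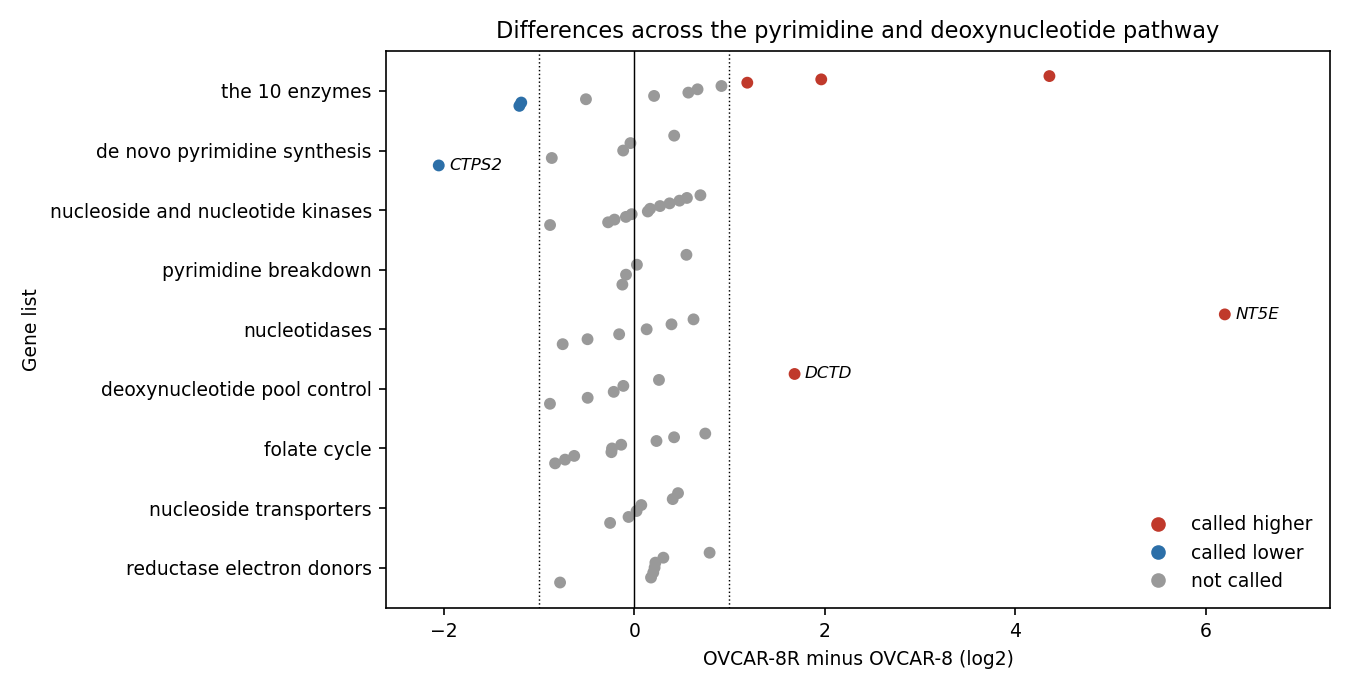
Difference between the lines, OVCAR-8R minus OVCAR-8 on the log2 scale (horizontal axis), of each tested gene in the 10 enzymes and in the 8 pathway lists (vertical axis), in red for called higher, blue for called lower and gray for not called, with dotted lines at 2-fold. NT5E at 6.20, DCTD at 1.68 and CTPS2 at -2.05 are the called genes outside the 10 enzymes.

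TK1, TYMS, RRM1 and RRM2 are transcribed mainly in S phase, so they were set beside 47 other S-phase genes. Of those 47, 1 was higher in OVCAR-8R, 8 were lower and 38 were not called, with a median difference of -0.47, against -0.01 for all genes. Among all genes, 8.37% were called higher and 8.37% lower. Among the lower genes were the replication factor genes MCM10, RFC3, CDC45 and POLA1, with differences of -2.10, -1.96, -1.69 and -1.35. UHRF1, which couples DNA methylation to replication, was higher and stood right at the 2-fold threshold, and its call was lost in 6 of the 8 fits that left out 1 array. E2F2, an activator of S-phase genes, and CDC6, which loads the replicative helicase, had differences of -0.99 and -0.98 and were not called. The difference of TK1 was above that of all 47 genes and that of TYMS above 45 of them, while RRM2 lay in the middle of the list and RRM1 below 42 of them.

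Of 19 mitotic genes tested, 4 were lower (CENPF, NUSAP1, CDK1 and CENPE, with differences of -1.64, -1.16, -1.08 and -1.05), against 8.37% of all genes. The other 15 did not pass, among them BUB1B and TOP2A with differences of -0.86 and -0.54. Not all mitotic genes lay lower. Of the 19, OVCAR-8R was below without overlap for 12 and above for 3, and 4 overlapped, against 29.5% below and 27.3% above among all genes. The proliferation marker MKI67 had a difference of -0.22 with overlapping lines. The summed log2 signal of the 47 S-phase genes was 415.69 to 418.88 in OVCAR-8R and 436.08 to 441.23 in OVCAR-8, and its part in the differences of RRM1 and RRM2 was not tested. The study states, without showing data, that resistant cells proliferated more slowly than sensitive ones. The part of slower proliferation in these differences was not tested. In bulk RNA, fewer cells in S phase and less RNA per such cell cannot be told apart.

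**Figure D5:**
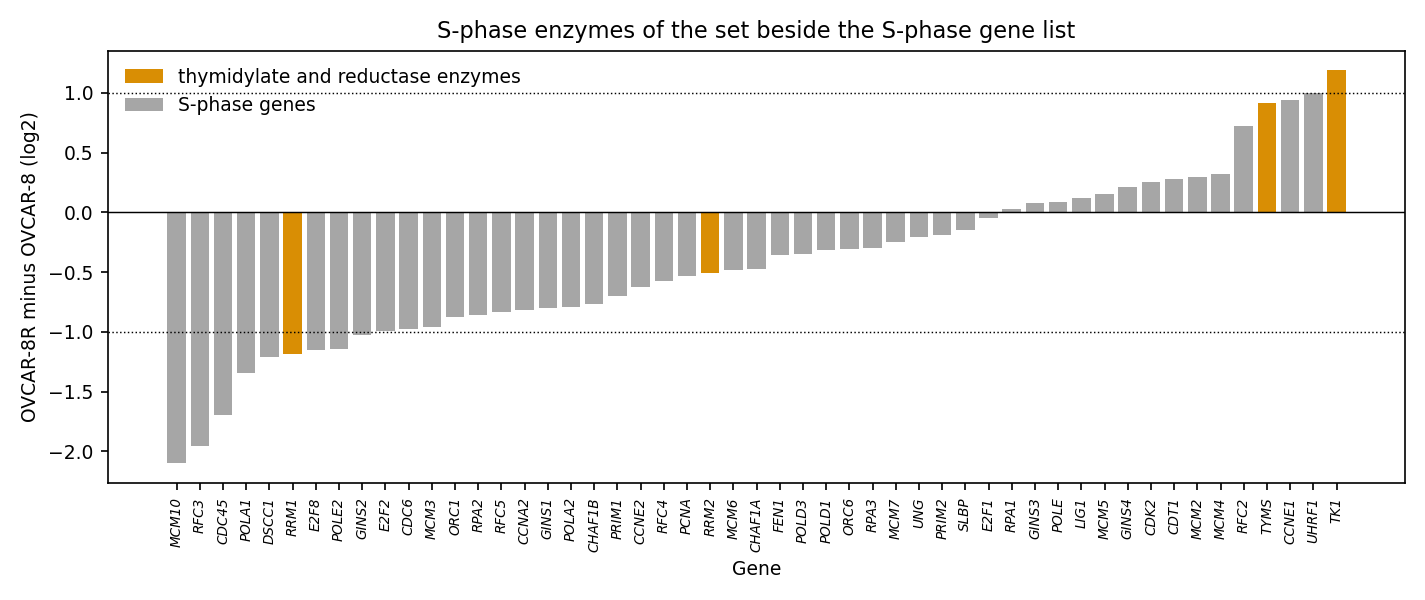
Difference between the lines, OVCAR-8R minus OVCAR-8 on the log2 scale (vertical axis), of TK1, TYMS, RRM1 and RRM2 (orange) and the 47 S-phase genes (gray), ordered by size (horizontal axis), with dotted lines at 2-fold. TK1 is at the right end at 1.19 and RRM1 near the left end at -1.19.

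RRM2B is a transcriptional target of p53, which the study describes as mutant in OVCAR-8 cells, and p53 activity was not tested. Besides RRM2B, 18 other p53 target genes were tested. Of these, 2 were higher, 1 was lower and 15 were not called, with a median difference of 0.06. The share called was like that of all genes, of which 16.7% were called, 8.37% higher and 8.37% lower. SESN1, a stress-induced regulator of growth signaling, fell by 2.13, while TP53I3 rose by 1.64 and PLK3 rose by 1.36. TP53INP1 and the death receptor gene FAS had differences of -0.96 and 0.87. The cell cycle inhibitor CDKN1A and MDM2, the ubiquitin ligase of p53, had differences of 0.61 and -0.40.

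The lines were checked against markers of ovarian carcinoma and of other cell types. Of 12 ovarian carcinoma markers, 6 (KRT7, MSLN, PAX8, KRT8, EPCAM and KRT18) were higher in OVCAR-8R, against 8.37% of all genes, with differences from 1.90 to 4.45, and 6 did not pass. Of those 6, WT1, EMX2 and CDH1 lay lower in OVCAR-8R with no overlap, with differences of -0.86, -0.69 and -0.23, and MUC16, ESR1 and KRT19 overlapped. The Müllerian transcription factor PAX8 had a mean log2 signal of 10.28 ± 0.16 in OVCAR-8R, against 6.51 ± 0.15 in OVCAR-8 (SD, n = 4 each), and KRT7 one of 10.82 ± 0.08, against 6.36 ± 0.41. MUC16, ESR1, CDH1 and KRT19 were low in both lines, with means between 5.38 and 6.40. The summed log2 signal of the 12 markers was 97.65 to 99.95 on the OVCAR-8R arrays and 80.41 to 81.98 on the OVCAR-8 arrays, a gap made by the 6 higher markers. Their part in the differences of the enzymes was not tested. The leukocyte genes CD14 and ITGAM and the 5 endothelial genes had means between 5.05 and 5.84 and none passed, PTPRC, CD3E and LYZ were below the signal filter, and among 6 fibroblast genes COL1A1 rose by 2.04 and LUM, in the lowest quartile of signal in OVCAR-8R, fell by 1.15. Array medians of log2 signal ran from 6.68 to 6.73 in OVCAR-8R and from 6.67 to 6.73 in OVCAR-8, and arrays correlated at 0.988 or more within a line and at 0.847 to 0.865 between lines.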

How the data were processed

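Total RNA from OVCAR-8R and OVCAR-8 spheroids was labeled and measured on Human Gene 1.0 ST arrays of Affymetrix, 4 per line. The authors computed signals by RMA (background correction, quantile normalization and probeset summary) in Affymetrix Expression Console. The deposited table holds these signals as linear intensity for 33297 probesets, of which 19460 are named by 1 gene, 1754 by several and 12083 are unnamed here. RMA equalizes the arrays, so an overall difference in RNA would not be seen.

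The plan expected a log scale, so each intensity was first turned into its log2. Following the study's methods, probesets whose mean fell in the bottom quartile for both OVCAR-8R and OVCAR-8 were dropped, which kept 25628 probesets and 15931 genes, each represented by the probeset with the highest mean. Lines were compared over all probesets kept in limma 3.58.1 under R 4.3.3 (functions lmFit and eBayes), with Benjamini-Hochberg adjustment. A gene was called where its adjusted p was under 0.05 and its change 2-fold or more. The labels call the arrays biological replicates without naming the step at which they were separated, so p-values measure the spread between arrays. An array has no read depth, so the number of arrays sets the precision.

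The members and lists were chosen with earlier results of these data known. Named genes are the 10 enzymes, all called genes of the 8 pathway lists with up to 2 uncalled ones of each with the largest differences, up to 4 called genes per direction and 2 uncalled ones of the S-phase, mitotic and p53 lists, and the 3 genes most correlated with CDA. SCO2, CTPS1, DHODH, SLC29A1, SAMHD1, DPYS, MKI67, CDKN1A, MDM2 and the markers of ovarian carcinoma, leukocytes and fibroblasts were named after their values were seen. For this comparison, with 25628 probesets simulated, 96 of 100 probesets changed by 1.5 on the log2 scale and 98 of 100 changed by 2 were recovered. Among the unchanged probesets, 1 was called. The simulated noise was independent on each array, so the pairs of OVCAR-8R arrays were not part of it. The simulation changed a far smaller share than the data, where 57.6% of genes had an adjusted p under 0.05. A call also needed a 2-fold change, so the low count of false calls is not a check of the adjusted p alone. Alternatives were other filters, thresholds, tests and scalings, array weights, the mean of a gene's probesets, a block on replicate number, and fits that each left out 1 array. Motifs were searched as exact letters.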

Additional observations from a re-analysis of the deposited data

Results flagged for a closer look

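For AGXT2, an aminotransferase at the end of thymine breakdown, OVCAR-8 array 4 stood apart from the other OVCAR-8 arrays, with a log2 signal of 5.14 against 5.37 to 5.41. Its gap to the nearest array was 0.870 of the line's whole range, past the 95% critical value of Dixon's test. This was 1 of 58 groups of 4 arrays examined, and chance alone flags about 1 in 20.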

How the results depend on the processing

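The directions of all 10 enzymes and of the 19 other pathway genes examined held under every alternative that gave a value. With treat, 2 of the 10 enzymes were called higher (CDA and DPYD) and 0 lower, and of the S-phase genes 0 were higher and 4 lower. Of all 15931 genes, treat called 832 higher and 643 lower. With no minimum size, 7 enzymes were higher and 3 lower, 17 and 14 of the 56 pathway genes, and 7 and 30 of the 47 S-phase genes. Of all genes, 27.6% were then higher and 30% lower, so the pathway counts were near those shares. The 1 higher S-phase gene, UHRF1, was lost (0) with array weights, median centring, the mean of a gene's probesets and OVCAR-8R arrays 2 and 4 only, and the count of lower pathway genes was 2 with OVCAR-8R arrays 1 and 3 only. The settings with pairs of OVCAR-8R arrays were added after the data were seen. Leaving out each array in turn gave 3 to 3 higher and 2 to 2 lower enzymes, 2 to 2 higher and 1 to 1 lower pathway genes, and 0 to 1 higher and 8 to 9 lower S-phase genes. UHRF1 was lost without OVCAR-8R array 1, 2 or 3 or OVCAR-8 array 2, 3 or 4. Same-numbered arrays deviated together for 2 of 4 numbers (r = 0.165, -0.323, -0.052 and 0.443), and 3 of 8 arrays correlated best with their own number, so the numbers were not taken as pairs. A replicate block left the counts at 3 and 2 for the enzymes, 2 and 1 for the pathway genes and 1 and 8 for the S-phase genes, and DCK then had an adjusted p of 0.0649. The cause of these shifts was not tested. Signals near the lowest quartile (NT5E in OVCAR-8, DPYS) limit what can be read from those genes.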
